A study of Homo sapiens with 4 samples.

Results

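The genes described here are 10 that build or regulate the contractile actin cytoskeleton, taken by name from a deposited comparison of 34675 genes. They are MYLK, MYL9, ACTA2, TPM1, TPM2, TAGLN, CNN2, CNN3, FLNA and VCL. Names of smooth-muscle type contractile genes and of targets of the serum response factor SRF were the rule of choice, and all 10 were found, each in 1 row. RNA came from MDA-MB-231 cells grown on plastic, an established triple-negative breast cancer line. One stable line carried FLAG-tagged wildtype LKB1 (the kinase encoded by STK11) in a pcDNA plasmid, and the other carried the pcDNA plasmid alone. Each line gave 2 libraries of total RNA. Whether a line was 1 clone or a pool, and whether its duplicates were separate cultures, is not stated in the labels. The p-values therefore describe the spread among the deposited libraries alone, and this spread may be technical.

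Smooth muscle and motile cells pull on their surroundings when myosin moves along actin filaments. The kinase MYLK, switched on by calmodulin, phosphorylates the regulatory light chain MYL9 and so activates myosin. Tropomyosins, calponins and transgelin bind along the filament, filamin cross-links filaments, and vinculin couples them to integrin adhesions. Many of these genes are driven by SRF with its actin-sensing cofactors, the myocardin-related factors MKL1 and MKL2, through a DNA element called the CArG box.

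MYLK rose in the LKB1 line, while TPM2 and TAGLN fell and the other 7 members did not pass the test. The authors' deposited table was read at an adjusted p under 0.05, by which 1 of 10 members was higher and 2 were lower. Over all 34675 genes 5.79% were called, 2.55% higher and 3.24% lower. All 10 members reached 40 reads in total, and among the 14387 genes that did so 12.6% were called (5.77% higher and 6.86% lower). Among the 11249 genes that reached 200 reads, as 9 of the members did or must have done, 6.20% were called higher and 5.83% lower. The median log2 fold of the members was 0.19, beside -0.02 for all genes with at least 40 reads. The table holds 1 fold per gene and no value per library, and all log2 folds printed here are the authors' own, from that deposited table. Read totals given below add up both libraries of a line and were worked out from the folds. By the same route the LKB1 line came out 1.04 times as deep as the vector line.

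The direction of the comparison is not named in the table. It was taken to be LKB1 over vector because STK11 then is the higher in the LKB1 line, with 2112 reads there and 1321 in the vector line (log2 fold 0.62). The authors' deposited table gives STK11 an adjusted p of 0.00105. Every direction given here rests on that reading. STK11 is among the 24 genes nearest to CNN2 on chromosome 19. Their median log2 fold was 0.18 and the highest was 0.67, so STK11 was not the highest there. CDKN2A, a tumour suppressor gene known to be deleted in MDA-MB-231, had 3 reads in the LKB1 line and 32 in the vector line, so 1 of the 2 groups, the vector line, did not match the named cell line by this gene (the limit for a match, 20 reads, was set after its reads were seen). Its ratio, vector over LKB1, was 11.1 with a counting interval of 3.47 to 56.6 (exact, Clopper-Pearson). It was 1 of 9 genes listed for the identity of the cell line, and the other 8 were not called. A call compares the 2 lines with each other, so it does not tell whether either matches the named cell line. CDKN2B, near it on chromosome 9, had 0 reads in both lines. ESR1 had 12 reads in the LKB1 line and 8 in the vector line, PGR 0 and 4, and CDH1 278 and 431. The title of 1 LKB1 library carries another run tag than the other 3 titles, and LKB1 titles say fmRNA where vector titles say mRNA. The run was not tested. The wording fmRNA or mRNA goes fully with the line, so a difference in preparation cannot be told apart from one between the lines. With 1 line per plasmid, LKB1 and other differences between the lines cannot be told apart either.

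Some of the members carry the CArG box next to a start site. RefSeq promoter windows of GRCh38.p14, reaching from 250 bases before to 50 after a transcript start, were matched for 8 members with 11 windows. TAGLN and MYL9 were not matched. A full CArG box was found in windows of 3 members, MYLK, CNN2 and FLNA, and in 1.29% of the 35116 windows of all genes. The pattern is its own reverse complement, so 1 search covered both strands. Neither of the 2 ACTA2 windows held a full box, but 1 of them held 2 copies with 1 mismatch, a looser match found in 17.9% of all windows. No full box was found in the windows of CNN3, TPM1, TPM2 and VCL, not all of which lie at the 5′ end of the gene. The stretches that hold a match are shown, since the box is the element that SRF is known to bind. Capitals mark the full box in MYLK, CNN2 and FLNA and the copies with 1 mismatch in ACTA2, each sequence read 5′ to 3′ on the strand of its gene.
MYLK, chr3:123620603-123620672, minus strand: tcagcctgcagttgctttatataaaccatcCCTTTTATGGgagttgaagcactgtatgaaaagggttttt
CNN2, chr19:1026489-1026558, plus strand: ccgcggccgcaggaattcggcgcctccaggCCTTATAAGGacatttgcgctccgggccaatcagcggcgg
FLNA, chrX:154374689-154374758, minus strand: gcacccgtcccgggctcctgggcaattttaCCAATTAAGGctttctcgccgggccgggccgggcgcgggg
ACTA2, chr10:88952805-88952924, minus strand: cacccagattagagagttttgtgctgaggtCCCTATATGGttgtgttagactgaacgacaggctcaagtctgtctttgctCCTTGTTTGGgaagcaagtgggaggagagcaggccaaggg

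The boxes of MYLK and FLNA begin 94 bases before the start of the transcript and that of CNN2 89 bases before it. The 2 looser copies of ACTA2 begin 121 and 71 bases before it. The window of MYLK is not that of the long kinase transcripts: its transcript starts 263783 bases inside the gene from the 5′ end that GENCODE 29 gives, where short transcripts that encode telokin, the non-catalytic end of the kinase, begin. Of the ACTA2 windows, the transcript of the one shown starts 38566 bases inside the annotated gene. Which ACTA2 start these cells used was not measured. The other ACTA2 window, at a start 2 bases inside the 5′ end, held neither the box, a copy with 1 mismatch nor the TEAD motif described next. The CNN2 and FLNA windows lie at the 5′ end of their genes, 27 and 4 bases inside it. For TPM1 and VCL the only window lies at a start 5857 and 2923 bases inside the gene. The windows of CNN3 lie at starts 1509 and 168 bases inside it, and those of TPM2 196 and 65. The absence of a box in the TPM1 and VCL windows thus does not describe the 5′ end of these genes. The motif of the TEAD factors, CATTCC or its reverse complement GGAATG, was found in windows of MYLK, ACTA2, CNN3 and VCL, and in 14.0% of all windows. None of these motifs was found in the windows of TPM1 and TPM2. These are matches of letters, and binding was not measured.

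**Figure D1:**
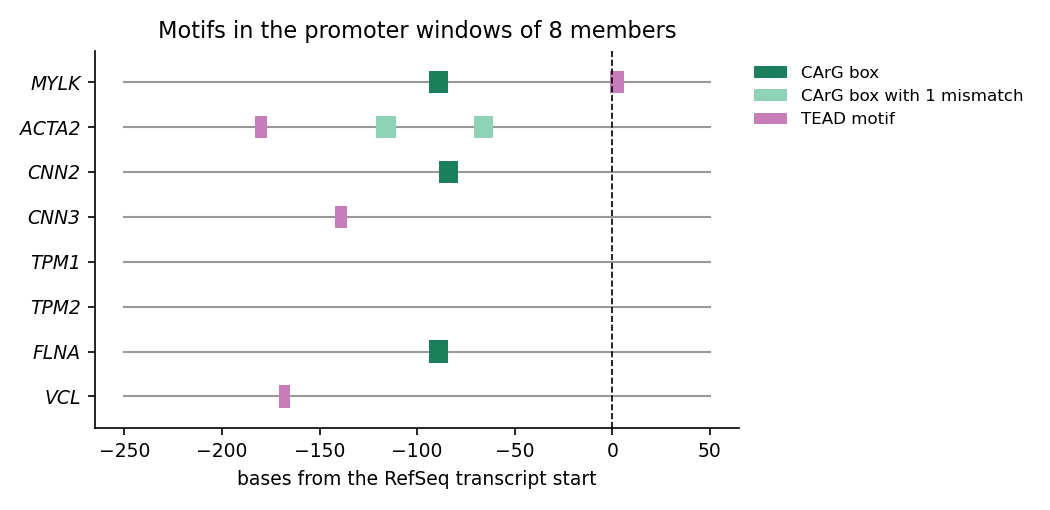
Position of motif matches (coloured boxes) in the promoter windows of 8 members, in bases from the RefSeq transcript start (dashed line). Full CArG boxes lie 94, 89 and 94 bases before the start in MYLK, CNN2 and FLNA, and 2 copies with 1 mismatch lie in ACTA2. Matches of a gene with more than 1 window are drawn on 1 line.

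MYLK encodes myosin light chain kinase, the enzyme that starts contraction. It had 4486 reads in the LKB1 line and 1957 in the vector line. That is a 2.20-fold higher level in the LKB1 line, or a log2 fold of 1.14, with an approximate 95% interval of 0.86 to 1.42 (adjusted p = 6e-13 in the authors' deposited table). Such intervals are built from the read totals and from the variation between libraries that the deposited p-value implies. The implied coefficient of variation was 0.0957 for MYLK and is not a spread measured between its own libraries. For the members it ranged from 0.0887 (TPM1) to 0.144 (ACTA2), beside a median of 0.105 over 9929 protein-coding genes with at least 200 reads. MYLK was the one member that stayed called at each setting tried, also with a variation of 0.2 assumed for every gene (adjusted p = 0.00664).

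MYLK (ENSG00000065534.14) lies on chromosome 3, 123328896 to 123603178, minus strand, hg19. Its long kinase forms and telokin share exons, so a total per gene does not tell them apart. The opposite strand holds MYLK-AS1, with 64 reads in the LKB1 line and 70 in the vector line, far fewer than MYLK in both. The median log2 fold of the 24 nearest protein-coding genes that reached 200 reads was 0.09, and the highest of them had 0.65. MYLK lay above all 24, of which 1 was called higher and 0 lower.

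MYL9, the light chain that MYLK phosphorylates, had 2354 reads in the LKB1 line and 1943 in the vector line. The log2 fold of MYL9 was 0.22 (interval -0.07 to 0.51), and the authors' deposited table gives it an adjusted p of 0.71. The enzyme was thus called and its substrate was not; the difference between their folds was not tested. MYL9 (ENSG00000101335.5, chromosome 20, 35169887 to 35178228, plus strand) is nearly identical in sequence to MYL12A and MYL12B, and how reads shared between them were counted is not given in the sources used here. MYL12A had 1945 reads in the LKB1 line and 1994 in the vector line, and MYL12B had 3768 and 3313, neither of them called.

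The tropomyosins lie along the groove of the actin filament and set which myosins and other proteins can bind. TPM2 (ENSG00000198467.7, chromosome 9, 35681989 to 35691017, minus strand) fell to 87 reads in the LKB1 line, against 174 in the vector line. With a log2 fold of -1.05 it lay lowest of the 10, with an interval of -1.52 to -0.59 (adjusted p = 0.000369 in the authors' deposited table). This call was lost when a variation of 0.2 was assumed (adjusted p = 0.0868). None of the 24 nearest genes was called, and their log2 folds ranged from -0.63 to 0.34, so TPM2 lay below all of them.

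TPM1 (ENSG00000140416.14, chromosome 15, 63334831 to 63364114, plus strand), the related gene whose splice forms serve muscle and non-muscle filaments, had 995 reads in the LKB1 line and 845 in the vector line. Its log2 fold was 0.18 (interval -0.10 to 0.46, adjusted p = 0.927 in the authors' deposited table). Intervals of TPM1 and TPM2 did not overlap, although the difference itself was not tested. Of the remaining tropomyosins, TPM4 fell, with a log2 fold of -0.55 (adjusted p = 0.00319 in the authors' deposited table). Its total could not be recovered because it exceeds 6000 reads in at least 1 line. TPM3 had 4112 reads in the LKB1 line and 4023 in the vector line and was not called. The family thus held 2 members that fell, TPM2 and TPM4, and 2 that were not called.

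**Figure D2:**
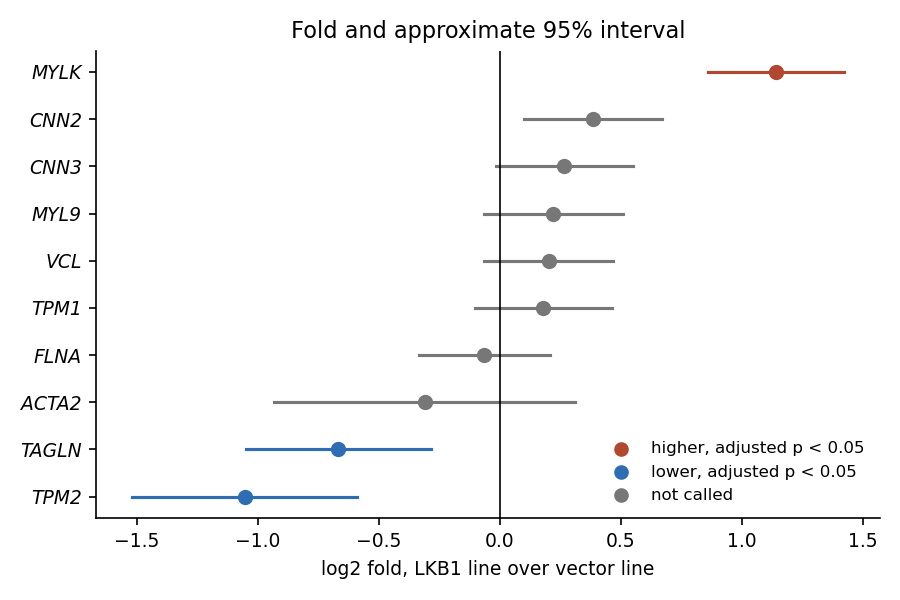
Log2 fold, LKB1 line over vector line (horizontal axis), of the 10 members, with approximate 95% intervals as lines. MYLK (1.14) lies to the right of 0 and TAGLN (-0.67) and TPM2 (-1.05) to the left; the other 7 were not called.

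TAGLN and ACTA2 are classical markers of smooth muscle and of activated fibroblasts. TAGLN (ENSG00000149591.12, chromosome 11, 117070037 to 117075498, plus strand) encodes transgelin, an actin-bundling protein of the calponin family. It fell to 191 reads in the LKB1 line, against 292 in the vector line. The log2 fold was -0.67, with an interval of -1.05 to -0.29 (adjusted p = 0.0149 in the authors' deposited table). With a variation of 0.2 assumed the adjusted p was 0.563, and the call was lost. The log2 folds of the 24 nearest genes ranged from -2.29 to 0.57, with 2 called higher and 1 lower. TAGLN thus lay within the range of its neighbours, but below their median log2 fold of 0.02. PCSK7, a protease gene on the opposite strand that overlaps TAGLN, had 631 reads in the LKB1 line and 670 in the vector line. The libraries were made by a stranded method, but whether strand was used in counting is not given in the sources used here.

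ACTA2 (ENSG00000107796.8, chromosome 10, 90694831 to 90751147, minus strand), smooth muscle alpha-actin, had the fewest reads of the 10, 67 in the LKB1 line and 80 in the vector line. Its log2 fold was -0.31, and the interval of -0.93 to 0.31 was the widest of the 10. It was not called (adjusted p = 1 in the authors' deposited table), and a fold of up to 1.91 lower or 1.24 higher lay within the interval. ACTA2 overlaps STAMBPL1 and FAS on the opposite strand, which had 800 and 67 reads in the LKB1 line and 765 and 66 in the vector line. Reads of actins are also easily shared with the near-identical actin genes ACTG2 and ACTC1.

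The calponins, which bind actin and damp the motor activity of myosin, were not called. CNN2 (ENSG00000064666.9, chromosome 19, 1026212 to 1039068, plus strand), the form found in many non-muscle cells, had 3251 reads in the LKB1 line and 2396 in the vector line. Its log2 fold was 0.38 (interval 0.10 to 0.67), with an unadjusted p of 0.00826 and an adjusted p of 0.113 in the authors' deposited table. When p-values were adjusted only over genes with at least 40 reads, the adjusted p was 0.0526. STK11 is among its 24 nearest genes, which had a median log2 fold of 0.18, with 3 called higher and 0 lower. The log2 fold of CNN2 lay within the range of these neighbours, -0.25 to 0.67.

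CNN3 (ENSG00000117519.11, chromosome 1, 95362507 to 95392834, minus strand), acidic calponin, had 4562 reads in the LKB1 line and 3648 in the vector line. This is a log2 fold of 0.27 (interval -0.02 to 0.55, adjusted p = 0.475 in the authors' deposited table). CNN1, the muscle form, had 3 reads in each line. Calponin reads thus came almost all from CNN2 and CNN3 in both lines.

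FLNA and VCL link actin to the membrane and to adhesions. FLNA (ENSG00000196924.10, chromosome X, 153576892 to 153603006, minus strand), filamin A, had a log2 fold of -0.07, with an interval of -0.34 to 0.21 (adjusted p = 1 in the authors' deposited table). Its reads could not be fixed, but the fold allows no totals below 34497 in the LKB1 line and 34714 in the vector line, the highest among the members. VCL (ENSG00000035403.11, chromosome 10, 75757872 to 75879918, plus strand), vinculin, had 5731 reads in the LKB1 line and 4792 in the vector line. For VCL the log2 fold was 0.20 (interval -0.06 to 0.47, adjusted p = 0.727 in the authors' deposited table). Folds of more than 1.38 higher in the LKB1 line lie outside the interval of VCL, and folds of more than 1.15 higher outside that of FLNA.

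**Figure D3:**
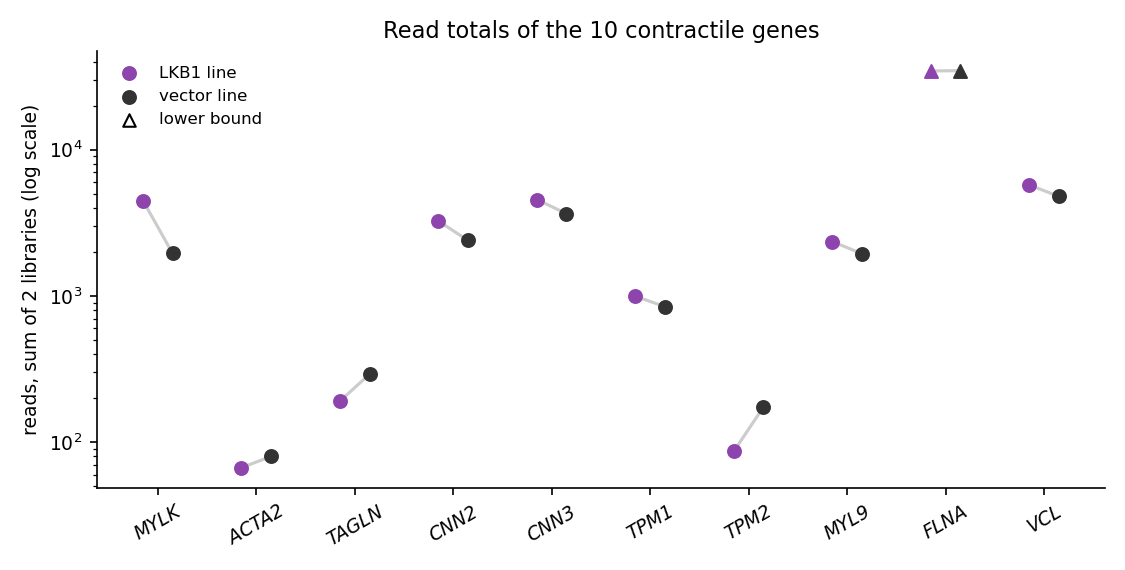
Reads per gene summed over the 2 libraries of a line (log scale), LKB1 line left and vector line right, for the 10 members. Totals run from 67 and 80 reads (ACTA2) to at least 34497 and 34714 (FLNA, triangles), and the steepest differences are those of MYLK and TPM2.

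Levels of the members were compared per kilobase of annotated exon. In the LKB1 line FLNA led with at least 4051 reads per kilobase, followed by CNN3 with 1947, CNN2 with 1450, VCL with 856 and MYL9 with 834. MYLK followed with 296 reads per kilobase in the LKB1 line, TPM1 with 119, TAGLN with 79.6, TPM2 with 53.0 and ACTA2 with 49.7. In the vector line FLNA had at least 4076 reads per kilobase, CNN3 1557, CNN2 1069, VCL 716 and MYL9 689. The other 5 lay between 59.3 (ACTA2) and 129 (MYLK) reads per kilobase in the vector line. The order of the 5 highest was the same in both lines. The exon length counts all annotated exons of a gene once, 15161 bases for MYLK, so genes with many alternative ends are set low on this scale. A line has no spread between its libraries here, so neighbours in this order were not tested.

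Of the 7 members not called, 5 had a log2 fold above 0 and 2 below, with a median of 0.20.

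**Figure D4:**
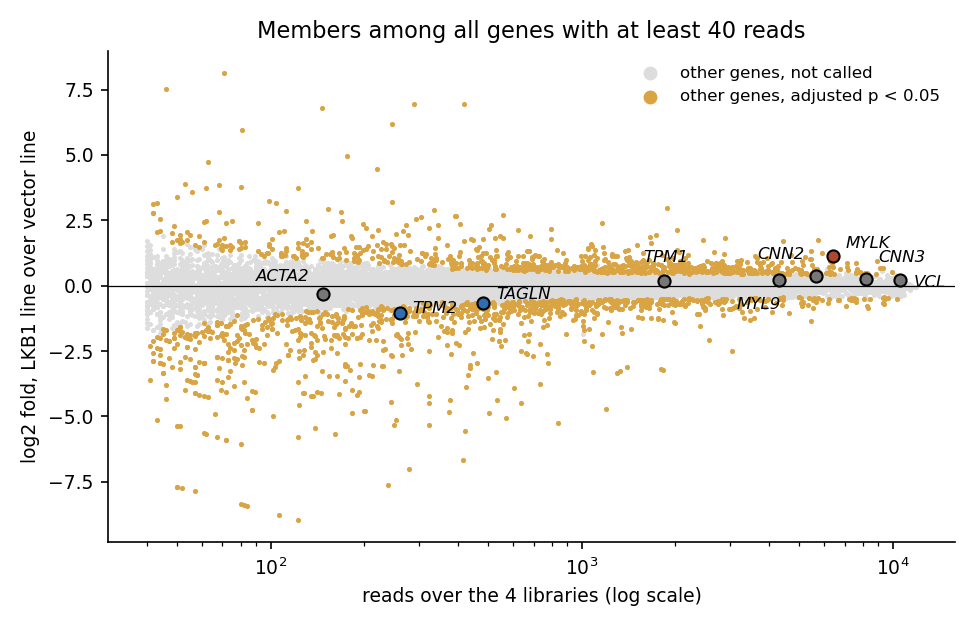
Log2 fold, LKB1 line over vector line, against reads over the 4 libraries (log scale) for genes with at least 40 reads and recovered totals; 9 members are marked and FLNA is not drawn. MYLK stands out at a high read total, TPM2 and TAGLN at low ones, and the remaining members lie among genes that were not called.

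SRF itself had 2079 reads in the LKB1 line and 2189 in the vector line, with a log2 fold of -0.13 (adjusted p = 1 in the authors' deposited table). Its actin-sensing cofactors MKL1 and MKL2 had log2 folds of 0.08 and 0.46, and MKL2 had an adjusted p of 0.118 there. Of 9 listed factors 1 rose and 0 fell, beside 2.55% higher and 3.24% lower over all genes. The 1 was ELK1, an ERK-regulated partner of SRF at growth-response genes, with 792 reads in the LKB1 line and 390 in the vector line (log2 fold 0.97). The authors' deposited table gives it an adjusted p of 2.3e-06. ELK1 lies in a stretch of the X chromosome where 17 of its 24 nearest genes were called higher, at a median log2 fold of 0.77. The muscle cofactor MYOCD had 3 reads in the LKB1 line and 0 in the vector line.

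Other targets of SRF and its cofactors changed in both directions, 2 of 26 higher and 7 lower. Over all genes 2.55% were higher and 3.24% lower, and over those with at least 40 reads 5.77% and 6.86%. The median log2 fold of the 23 with at least 40 reads was -0.01. SMTN, the smooth muscle actin-binding protein smoothelin, fell to 670 reads in the LKB1 line, against 1285 in the vector line (adjusted p = 2.63e-08 in the authors' deposited table). PDLIM5, a scaffold at actin filaments, had 2032 reads in the LKB1 line and 3521 in the vector line (log2 -0.85). The fibronectin receptor chain ITGA5, at a log2 fold of -0.59, FHL1 at -0.75 and TGFB1I1 at -0.75 also fell. TLN2, a talin that binds vinculin at adhesions, rose by a log2 fold of 0.74 (1231 reads in the LKB1 line and 711 in the vector line). The non-muscle myosin chains MYH9 and MYH10 were not called, at log2 folds of 0.26 and 0.42.

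Among relatives of the members 1 of 19 was higher and 2 were lower, with a median of 0.05 over the 11 with at least 40 reads. Shares over all genes were 2.55% higher and 3.24% lower, and 5.77% and 6.86% over those with at least 40 reads. TAGLN2, the widely expressed relative of TAGLN, rose by a log2 fold of 0.51, with 4675 reads in the LKB1 line and 3156 in the vector line (adjusted p = 0.0078 in the authors' deposited table). TAGLN and TAGLN2 were thus called in opposite directions. ACTG2, smooth muscle gamma-actin, fell to 2 reads in the LKB1 line, against 26 in the vector line. Its ratio, vector over LKB1, was 13.5 with an exact counting interval of 3.38 to 118. The cytoplasmic actins ACTB and ACTG1 had log2 folds of 0.24 and -0.03 and were not called.

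Regulators of light chain phosphorylation held 2 higher and 2 lower genes of 21, at a median of -0.02 over 20 with at least 40 reads. Over all genes 2.55% were called higher and 3.24% lower, and over those with at least 40 reads 5.77% and 6.86%. CALM2, a calmodulin gene, rose by a log2 fold of 0.50. Regulators of actin monomers held 2 higher and 1 lower of 16, beside the same shares over all genes, at a median of 0.01. TMSB4X, the thymosin that holds free actin, rose by a log2 fold of 0.86, and LIMK1, the kinase that inactivates cofilin, rose by 0.66. The profilin gene PFN2 fell by 0.71 on the log2 scale.

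Over the 5 pathway lists together, 8 of 91 genes were higher and 12 lower, beside 2.55% and 3.24% over all genes and 5.77% and 6.86% over those with at least 40 reads. Of the 91, 1, the phosphatase inhibitor gene PPP1R14A, had no read in either line. Among the 78 with at least 40 reads the median log2 fold was -0.01. With a variation of 0.2 assumed 0 were higher and 2 lower.

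**Figure D5:**
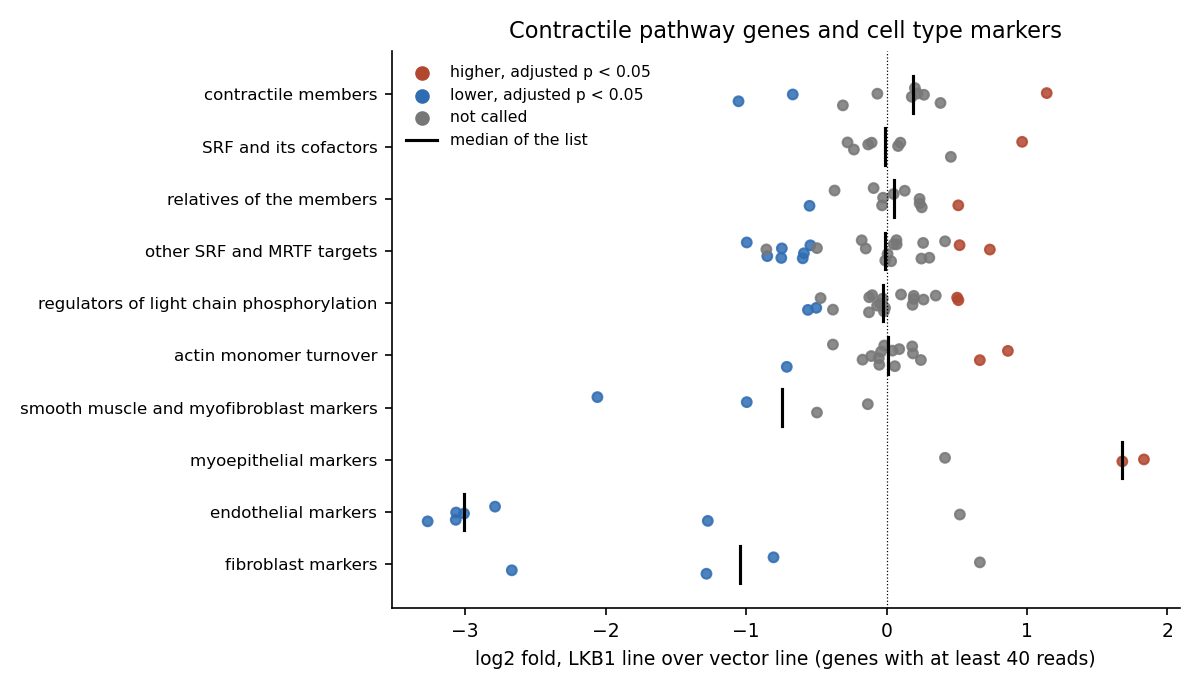
Log2 fold, LKB1 line over vector line, of genes with at least 40 reads in each list; points are genes and vertical bars are list medians. The pathway lists centre near 0 with a few called genes on both sides, whereas 6 of 7 endothelial markers lie below 0.

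Some markers of other cell types were called as well, in both directions. Smooth muscle and myofibroblast markers fell in 3 of 10 (SMTN, ACTG2 and the pericyte gene RGS5, with 31 reads in the LKB1 line and 125 in the vector line) and rose in 0. Shares over all genes were 3.24% lower and 2.55% higher. The defining markers of smooth muscle were near 0 in both lines: MYH11 had 2 reads in the LKB1 line and 1 in the vector line, and the intermediate filament gene DES had 1 read in each. SMTN and ACTG2 also stand in the lists above. Summed over the list there were 906 reads in the LKB1 line and 1649 in the vector line. Of these SMTN alone gave 670 and 1285, while PDGFRB had 163 and 172.

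Myoepithelial markers rose in 2 of 8, the oxytocin receptor OXTR (271 reads in the LKB1 line and 73 in the vector line) and TRIM29 (177 and 53). Of all genes 2.55% were called higher, and of those with at least 40 reads 5.77%. The defining keratin KRT5 had no read in either line and KRT14 had 0 in the LKB1 line and 1 in the vector line. KRT17 went the other way, with 7 reads in the LKB1 line and 15 in the vector line, and was not called. TP63 had 143 reads in the LKB1 line and 103 in the vector line and was not called. The list summed to 603 reads in the LKB1 line and 249 in the vector line.

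Endothelial markers fell in 6 of 7 measured, beside 3.24% called lower over all genes and 6.86% over those with at least 40 reads. The adhesion gene ESAM had 129 reads in the LKB1 line and 1197 in the vector line, the TGF-beta co-receptor ENG 22 and 172, and the clotting factor carrier VWF 25 and 203. TIE1, a receptor kinase, had 19 reads in the LKB1 line and 155 in the vector line, the cadherin CDH5 18 and 121, and the VEGF receptor KDR 73 and 170. EGFL7 went the other way, with 336 reads in the LKB1 line and 225 in the vector line (log2 fold 0.52), and was not called. The list summed to 622 reads in the LKB1 line and 2243 in the vector line, and none was at 0.

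Fibroblast markers fell in 3 of 8, beside 3.24% called lower over all genes. The 3 were all collagen genes. COL6A3 had 158 reads in the LKB1 line and 370 in the vector line, COL1A1 85 and 143, and COL3A1 6 and 38. The collagen gene COL1A2 had 160 reads in the LKB1 line and 97 in the vector line (log2 fold 0.66) and was not called, with an adjusted p of 0.0656 in the authors' deposited table. The list summed to 419 reads in the LKB1 line and 658 in the vector line, and DCN had no read in either. The summed levels of both lists were lower in the LKB1 line, and ESAM gave 1197 of the 2243 endothelial reads of the vector line. EGFL7 and COL1A2 had folds above 0. Of the contractile genes TPM2, TAGLN and SMTN were lower as well, whereas MYLK, TLN2 and TAGLN2 were higher. Among the 10 members 6 had a log2 fold above 0 and 4 below. The part of these cell types in the changes of the contractile genes was not tested. Fewer cells of a type and less RNA per cell cannot be told apart in such bulk libraries.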

How the data were processed

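RNA of 2 stable lines was sequenced, 2 libraries each, and a table of 1 comparison was analysed. Build hg19, TopHat2 2.0.6, CASAVA 1.8.2 and edgeR 2.6.0 were used by the authors, per the submitters' processing notes, in roles that are not given; nor are the counting, annotation and filters. Per gene the authors deposited a p-value, its adjusted value and a fold (ratio) with its log2, per the file headers. The adjusted p-values equal the Benjamini-Hochberg adjustment over all 34675 genes to within 1.9e-06.

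A fold with prior counts (0.254868 reads in the LKB1 group, 0.245132 in the vector group) takes only certain values, so whole read totals per group up to 6000 were searched (log2 tolerance 7e-10). Of 28242 genes with reads 98.42% gave 1 solution, 338 none and 108 several, of which the smallest was used. Totals carry no spread between libraries, and intervals from counts cover counting error only. The planned fit per library could not be run without values per library. Variation between libraries was solved from each deposited p-value with the negative binomial exact test; intervals are the log2 fold ± 1.96 standard errors. The steps were tested on simulated data. Exon lengths came from GENCODE 29 and promoters from RefSeq.

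All members are named, and of each other list the called genes with the smallest p-values, up to 6, except some that are not reported here; genes not called, and CDKN2A, were named after their values were seen. The members, lists and motifs were chosen with earlier results of these data known. Analyses used Python 3.11.15, SciPy 1.17.1 and pandas 2.3.3.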

Additional observations from a re-analysis of the deposited data

How the results depend on the processing

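MYLK was called higher at each of the 9 alternative settings that give a call. The 2 lower members became 1, TPM2, at an adjusted p under 0.01 or a fold of at least 2, and 0 with a Bonferroni adjustment or with a variation of 0.2 assumed. The 8 higher genes of the pathway lists became 4 at a fold of at least 1.5, 0 at a fold of at least 2, 2 with Bonferroni and 0 with a variation of 0.2; the 12 lower genes became 1, 2 and 2 at the last 3 of these settings. STK11 kept its log2 fold of 0.62 and lost its call at a fold of at least 2, with Bonferroni (adjusted p = 1) and with a variation of 0.2 (adjusted p = 0.551). For most of these settings a stricter threshold is the change itself. The median log2 fold of genes with at least 200 reads was -0.00486. Subtracting it turned no direction of a called member, and could not, since the smallest of their log2 folds in size was -0.67 (TAGLN). No library could be left out, and no paired analysis was possible because the table holds no value per library. ACTA2 and TPM2, with the fewest reads, are the members whose intervals were widest.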
